A study of Mus musculus with 26 samples.

Results

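Aldehyde dehydrogenase transcripts were followed in murine lung cancer cells in which the kinase ALK was inhibited with alectinib. The 10 genes, taken by symbol from the gene count table without regard to case, were Aldh1a1, Aldh1a3, Aldh1a7, Aldh1b1, Aldh1l2, Aldh2, Aldh3a1, Aldh3a2, Aldh3b1 and Aldh7a1, of 55391 genes listed. All 10 were found, and 9 passed the filter on low counts, leaving Aldh1b1 untested. The cells were the lines EA1, EA2 and EA3, each carrying the EML4-ALK fusion that makes ALK constitutively active. Each line was cultured with 100 nM alectinib or with 0.1% DMSO as the vehicle, and a single library was sequenced after 1, 2, 3 and 5 days of each treatment, which gives 24 libraries. The lines started from tumours that a Cas9 adenovirus induced in C57BL/6 mice, and each is a single line, so that differences between lines cannot be told apart from differences in their origin.

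Aldehyde dehydrogenases oxidise aldehydes to carboxylic acids with NAD or NADP as the cofactor. Aldh1a1 and Aldh1a3 convert retinaldehyde to retinoic acid, the ligand of the retinoic acid receptors, and their enzyme activity is widely used to mark stem-like and drug-tolerant tumour cells. Other members work in mitochondria on acetaldehyde, formyl-folate or lysine-derived semialdehydes, and the Aldh3 enzymes act on fatty and aromatic aldehydes, including those formed when membrane lipids are oxidised.

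Library totals of the 24 libraries ran from 5780062 to 11732401 counts, with a median of 9252878. The 4 days served as the replicates of each line and treatment, and the labels do not say whether the days came from separate cultures, so that p-values measure only the spread between these libraries. A further 2 libraries were labelled EA3 day 7, but their profiles correlated with the mean of EA2 (r = 0.967 for DMSO and 0.986 for alectinib, across genes, which are not independent replicates) more than with that of EA3 (r = 0.887 and 0.876). They entered none of the main comparisons. The 3 listed targets of MAPK signalling, the pathway that ALK drives, were lower with alectinib in every line. Epithelial transcripts were high in all lines, although Cldn7 had at most 3 counts in EA1 and EA2 and Epcam had at most 3 counts in the EA2 alectinib libraries. The summed level of 8 fibroblast marker transcripts ran from 9.55 to 45.3 CPM (counts scaled by library total and edgeR's TMM factor) with DMSO and from 125 to 472 CPM with alectinib in EA1, and EA2 gave 57.1 to 71.3 and 119 to 241 CPM, while EA3 gave 10.3 to 20.5 and 84.9 to 271 CPM. Of the 6 that were tested, 5 rose in EA1, 3 in EA2 and 5 in EA3, while Thy1 stayed at or under 3 counts in every library. The summed epithelial level ran from 4750 to 9120 CPM with DMSO and from 3180 to 5350 with alectinib in EA1, from 1820 to 2690 and from 561 to 1180 in EA2, and from 4760 to 6860 and from 2950 to 6750 in EA3. Of the 6 epithelial genes tested, 1 rose and 1 fell in EA1, 1 rose and 2 fell in EA2, and 1 rose and 1 fell in EA3, with Krt18 falling in each line. The 6 leukocyte transcripts summed to 1.83 to 9.55 CPM with DMSO and 1.92 to 6.46 with alectinib in EA1, 11.1 to 87.6 and 12.6 to 51.1 in EA2, and 5.38 to 93.4 and 7.83 to 21.4 in EA3. In EA3 their median went from 28.1 to 9.64 CPM. The sum was mostly Cd68, the 1 leukocyte gene tested, which passed in no line, while Adgre1 and Cd3e stayed at or under 3 counts in every library. Among the 3 ciliated cell transcripts Foxj1 was tested and rose in all lines, by 3.01, 2.85 and 3.21 on the log2 scale, although it had at most 3 counts in an EA2 library, and the sum in EA3 went from 2.92 to 9.42 CPM with DMSO to 19.3 to 80.4 CPM with alectinib, while Tekt1 and Dnah5 stayed at or under 3 counts. Of the 5 alveolar type 2 transcripts Abca3 was tested and rose in EA3 by 0.82, while Sftpc and Sftpa1 stayed at or under 3 counts. Of the 3 endothelial genes tested, Pecam1 fell in EA2, where the 5 listed summed to 1.98 to 5.70 CPM with DMSO and 0.173 to 0.997 CPM with alectinib. Club cell transcripts (Scgb1a1, Scgb3a2 and Cyp2f2) summed to at most 0.429 CPM. The part of these markers in the changes of the aldehyde dehydrogenases was not tested, and in bulk libraries fewer cells of a type cannot be told apart from less RNA per cell.

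Aldh1a1 and Aldh1a7 are neighbours on chromosome 19 (GRCm38). Aldh1a1 lies at chr19:20492715-20643465 on the plus strand and Aldh1a7 at chr19:20692953-20727562 on the minus strand, with 49487 bases between them. Their coding sequences were 91.6% identical over 1506 bases, whereas Aldh1b1 and Aldh2 reached 70.2% and Aldh1a1 and Aldh1a3 69.1%. The first 120 coding bases, read from GENCODE M21 transcripts, are shown because reads of these genes have to be told apart by such differences, and capitals mark the 10 bases that differ.

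Aldh1a1 coding start: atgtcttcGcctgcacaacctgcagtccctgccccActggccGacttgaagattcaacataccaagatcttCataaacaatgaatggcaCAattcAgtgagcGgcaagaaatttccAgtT
Aldh1a7 coding start: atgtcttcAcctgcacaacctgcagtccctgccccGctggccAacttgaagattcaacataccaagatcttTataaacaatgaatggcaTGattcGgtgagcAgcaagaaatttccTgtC

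Of the 1457 windows of 50 coding bases in Aldh1a7, 151 (10.4%) were also present in Aldh1a1 transcripts. That number fell to 1 of 1407 windows of 100 bases and to 0 of 1356 windows of 151 bases, the read length of this study. Counts of both genes are therefore uncertain to the extent that trimmed or short fragments map to either, and the counter used kept uniquely mapped reads. The likeness extended to the 100 bases before the start site, of which 94 were identical, and dropped to 129 of 250 over the longer stretch. Both promoters are shown from RefSeq (GRCm38.p6), 250 bases up to the start site and in the direction of transcription, since both neighbours are compared across the lines further on. Capitals mark matches to CCAAT and TATAAA.

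Aldh1a1 promoter, chr19:20601718-20601967, plus strand: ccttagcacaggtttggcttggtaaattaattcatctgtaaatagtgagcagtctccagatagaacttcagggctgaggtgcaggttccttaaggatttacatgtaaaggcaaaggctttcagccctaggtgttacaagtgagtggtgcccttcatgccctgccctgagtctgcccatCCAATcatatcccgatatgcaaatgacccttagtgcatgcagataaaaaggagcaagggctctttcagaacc
Aldh1a7 promoter, chr19:20727557-20727806, minus strand: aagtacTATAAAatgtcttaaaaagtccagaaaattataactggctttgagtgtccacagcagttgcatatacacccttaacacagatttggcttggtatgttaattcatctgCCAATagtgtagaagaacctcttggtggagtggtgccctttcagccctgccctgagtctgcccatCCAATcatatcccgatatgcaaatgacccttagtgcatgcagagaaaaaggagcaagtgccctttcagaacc

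A CCAAT match stood 72 bases before the start site in both, and Aldh1a7 held another at 137 bases and a TATAAA match at 244 bases. Of 32851 mouse promoters of this length, 33.8% held CCAAT and 12.4% held TATAAA on either strand. Neither promoter held GCGTG, TGACNNNGC or TGATGNAA, cores bound by the dioxin receptor, NRF2 and ATF4, which were present in 28.2%, 10.2% and 3.45% of promoters. RefSeq gives Aldh1a1 another start site, with the AP-1 core TGANTCA (6.75% of promoters) 57 bases before it. The promoter table covered 5 of the 10 genes.

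Alectinib and DMSO libraries of a line were compared with the quasi-likelihood test of edgeR over 14264 genes, with line and day as blocks and Benjamini-Hochberg adjustment at 0.05. Of the 9 genes tested, 6 rose and 1 fell in EA1, 1 rose and 3 fell in EA2, and 2 rose and 3 fell in EA3. Those that rose in EA1 include Aldh1a7, which passed the filter on low counts only through the other lines. Over all genes, 18.0% rose and 15.8% fell in EA1, 13.0% rose and 11.3% fell in EA2, and 16.5% rose and 15.8% fell in EA3. The same shares are the background for the alectinib counts of the other gene lists. Aldh1a1 was the only member that rose in all lines, which 5.48% of all genes did, and no member fell in all lines. On the log2 scale, the median change of the 9 members was 1.04 in EA1 where all genes had 0.03, -0.14 in EA2 where all genes had 0, and 0.28 in EA3 where all genes had 0.04. The EA1 median was the same with Aldh1a7, which had no count with DMSO, at its lower bound.

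**Figure D1:**
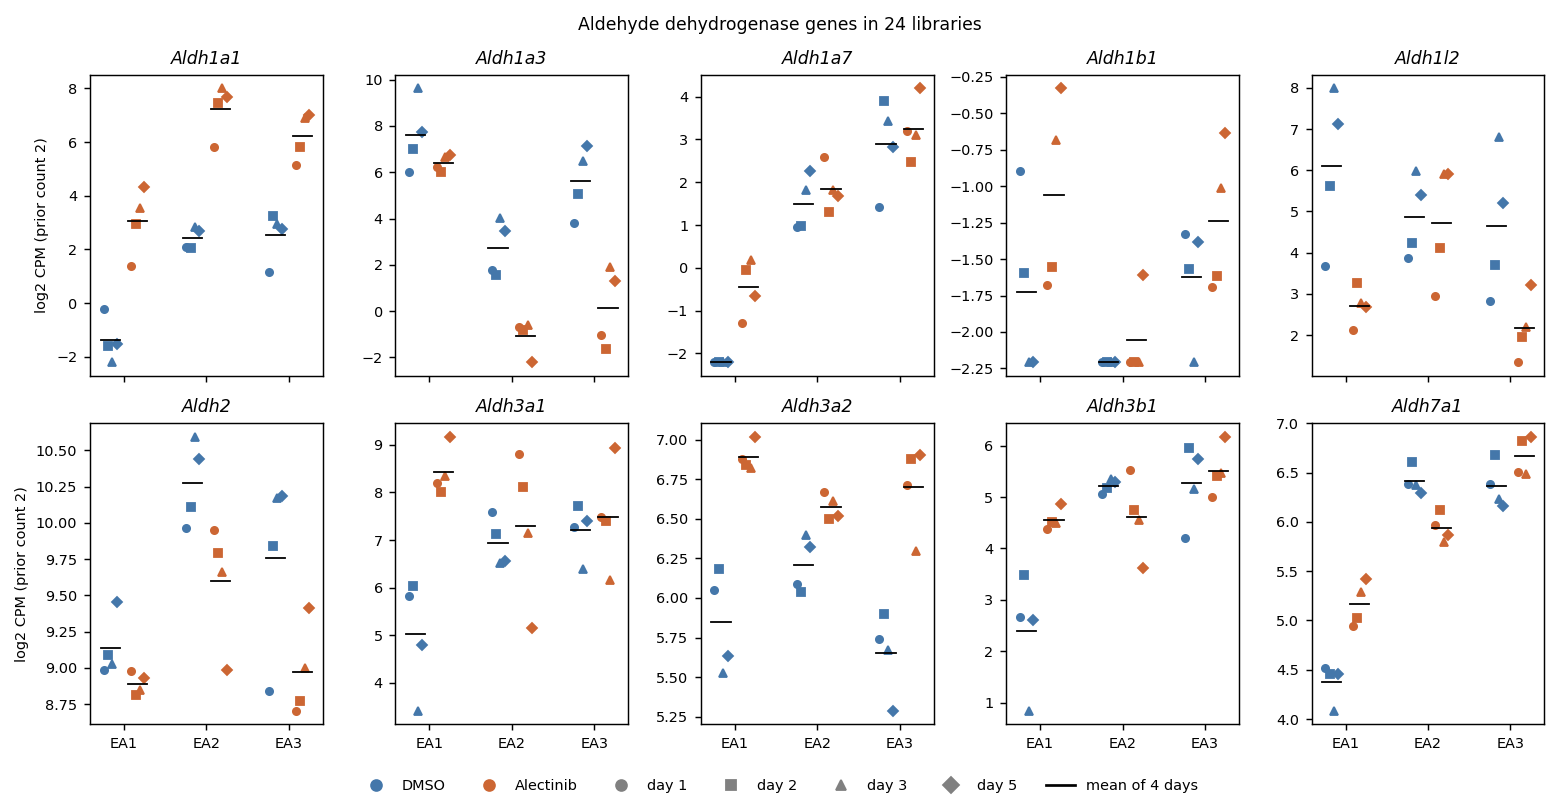
Log2 CPM (prior count 2, vertical axis, with its own range in each panel) of the 10 genes in 24 libraries by line, with DMSO in blue, alectinib in orange, a marker shape for each day and a black bar for the mean of 4 days. Aldh1a1 with alectinib lies above DMSO in every line, and Aldh1a3 with alectinib lies below DMSO in EA2 and EA3.

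Aldh1a1, a cytosolic retinaldehyde dehydrogenase, rose 36.7-fold in EA1, 29.4-fold in EA2 and 13.2-fold in EA3. In EA1 it had 6, 1, 0 and 1 counts with DMSO on days 1, 2, 3 and 5, and 25, 61, 113 and 241 counts with alectinib. In EA2 it measured 4.05, 3.94, 6.90 and 6.29 CPM with DMSO and 55.8, 175, 257 and 205 CPM with alectinib. EA3 gave 2.01, 9.30, 7.57 and 6.50 CPM with DMSO and 35.4, 55.7, 119 and 130 CPM with alectinib. The treatments did not overlap in any line, and the lowest alectinib library of each line was that of day 1. The log2 fold change was 5.20 ± 0.71 (SE) in EA1 (edgeR adjusted p = 0.000165), 4.88 ± 0.48 in EA2 (1.64e-05) and 3.73 ± 0.46 in EA3 (8.81e-05). The effect did not pass the test between lines (adjusted p = 0.331), and the difference of EA3 from EA1 was -1.47 on the log2 scale, with a 95% interval from -3.46 to 0.52. That test did pass without day 1 (adjusted p = 0.0344) and with no filter on low counts (0.00593). Across the alternatives the EA1 log2 fold change ran from 4.55 without day 5 to 7.13 without day 1, with adjusted p of at most 0.00657. The EA1 fold rests on a DMSO mean of 0.221 CPM, at or under 3 counts on 3 of the 4 days, and the summed fibroblast markers moved in the same direction in each line.

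Aldh1a3, the other retinaldehyde dehydrogenase among the members, fell in EA2 and EA3 and did not pass the test in EA1. EA2 gave 3.24, 2.77, 16.0 and 10.6 CPM with DMSO, and 4, 2, 4 and 0 counts with alectinib. In EA3 it measured 13.8, 32.9, 89.5 and 139 CPM with DMSO and 0.277, 0.110, 3.54 and 2.25 CPM with alectinib. The treatments did not overlap in these lines. The log2 fold change was -4.67 ± 0.78 in EA2 (edgeR adjusted p = 0.000866) and -5.59 ± 0.60 in EA3 (3.82e-05). In EA2 it was -5.29 without day 1 and -4.03 without day 5, and in EA3 it was -6.19 without day 3. EA1 had the highest Aldh1a3, at 64.6, 130, 790 and 211 CPM with DMSO and 73.7, 65.0, 101 and 107 CPM with alectinib. There the treatments overlapped, the DMSO library of day 3 stood far above the rest with 7033 counts, and the log2 fold change was -1.17 ± 0.46 (adjusted p = 0.0659). The EA1 fall passed the test without day 1 (-1.60, adjusted p = 0.0295) and with no filter on low counts (-1.19, 8.31e-07), and was -0.62 without day 3 (0.287). The effect differed between lines (adjusted p = 0.00786), lying 3.50 lower on the log2 scale in EA2 than in EA1 (95% interval of the difference -5.55 to -1.45) and 4.42 lower in EA3 than in EA1 (-6.03 to -2.81). Without day 5 the difference between lines had an adjusted p of 0.0791 and with no replicate block 0.0984. Taken as pairs, EA2 minus EA1 (adjusted p = 0.046) did not pass without any single day (0.0647 to 0.241), with all 26 libraries (0.0524) or with no replicate block (0.216), and EA3 minus EA1 (0.0113) did not without day 2 (0.115) or day 5 (0.0768) or with no replicate block (0.13). The size moved as well, to -5.565 for EA3 minus EA1 without day 3 and to -2.79 for EA2 minus EA1 without day 5.

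Per kilobase of exon, Aldh1a1 and Aldh1a3 can be set against each other. In EA2, Aldh1a1 made up between 28.7% and 57.1% of their summed CPM per kilobase with DMSO and between 99.2% and 100.0% with alectinib. In EA3 its share ran from 4.20% to 20.9% with DMSO and from 96.9% to 99.8% with alectinib. Aldh1a1 was thus the major transcript of the pair in these lines under alectinib. EA1 kept Aldh1a3 as the major transcript, with an Aldh1a1 share of at most 0.923% with DMSO and between 2.96% and 14.9% with alectinib. The sum of both rose in EA2 from between 1.40 and 4.86 to between 11.4 and 52.2 CPM per kilobase. In EA3 the sums of both treatments overlapped, at 3.39 to 31.4 with DMSO and 7.23 to 26.9 CPM per kilobase with alectinib. EA1 sums on days 1, 2, 3 and 5 were 14.1, 28.1, 171 and 45.7 with DMSO and 16.4, 15.6, 24.3 and 27.1 with alectinib, lower on every day but day 1.

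Aldh1a7, the rodent paralogue of Aldh1a1, was low in every line. In EA1 no read was counted with DMSO on any day, and 2, 6, 9 and 5 counts were present with alectinib. Against a floor of 3 counts over the group this was at least 6.33-fold higher, a bound that was not itself tested. The edgeR test, which used no such floor, gave an adjusted p of 0.0158, and 0.0851 without day 3. With EA1 fitted alone Aldh1a7 did not pass the filter on low counts, so it was tested in EA1 only through its level in the other lines. Aldh1a1 had 25, 61, 113 and 241 counts in these libraries, and the part of sequence shared with it in the Aldh1a7 counts was not tested. In EA2 it measured 1.71, 1.75, 3.30 and 4.61 CPM with DMSO and 5.76, 2.25, 3.33 and 3.00 CPM with alectinib, and in EA3 2.46, 14.6, 10.5 and 6.84 CPM against 8.97, 5.38, 8.37 and 18.1 CPM. Both lines overlapped between treatments, and the log2 fold changes were 0.36 ± 0.58 (adjusted p = 0.698) and 0.37 ± 0.57 (0.655). In the same EA2 and EA3 libraries Aldh1a1 rose, so that the ratio of the neighbours was not constant across libraries. The Aldh1a7 effect did not pass the test between lines (adjusted p = 0.138), but did with DESeq2 (0.0227) and with no filter (0.000616).

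**Figure D2:**
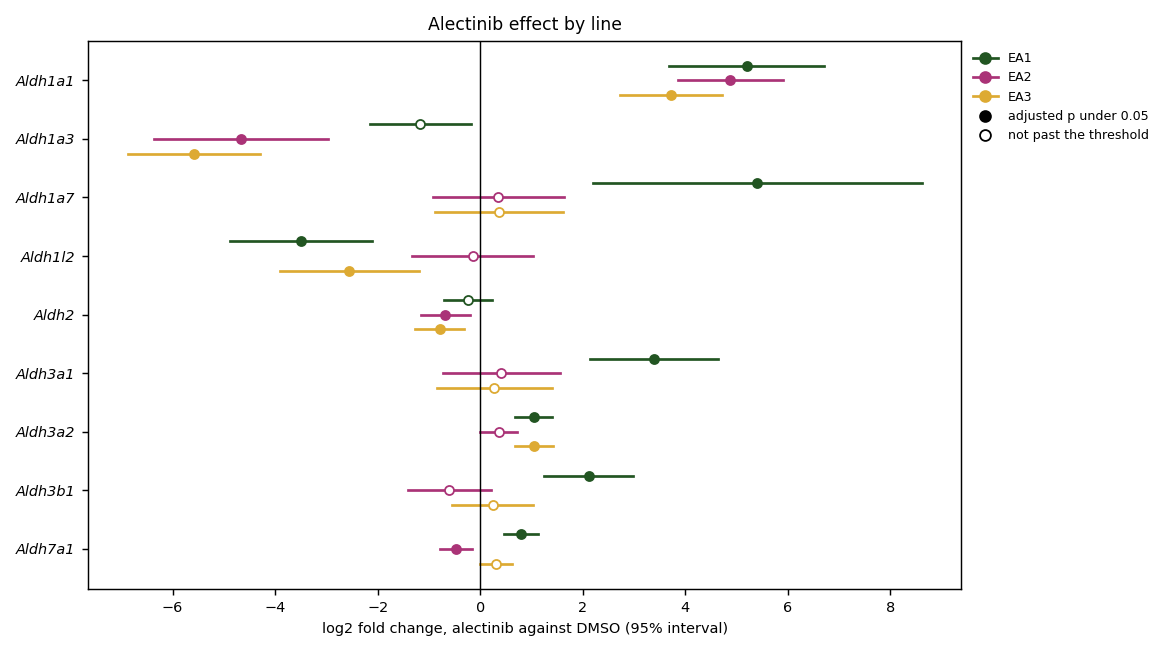
Log2 fold change of alectinib against DMSO (horizontal axis, points) with the 95% interval (lines) for the 9 genes tested in each line, with filled points past the threshold. The Aldh1a1 intervals lie above 0 in all lines, and the Aldh1a7 point in EA1 is a fitted value against DMSO libraries without a count and is no measure of size.

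Among the mitochondrial members, Aldh2 clears acetaldehyde and lipid-derived aldehydes. It was the member with the highest mean level per kilobase with DMSO in each line. In EA1 it measured between 507.5 and 699.7 CPM with DMSO and between 450.1 and 504.4 CPM with alectinib, and its log2 fold change was -0.25 ± 0.22 (edgeR adjusted p = 0.397). EA2 libraries held 998.7, 1105, 1544 and 1390 CPM with DMSO and 987.3, 885.0, 810.2 and 507.3 CPM with alectinib. EA3 libraries held 458.4, 917.5, 1153 and 1166 CPM with DMSO and 417.1, 436.7, 511.9 and 681.6 CPM with alectinib. The fall of Aldh2 passed the test in EA2 (log2 fold change -0.68 ± 0.22, adjusted p = 0.039) and in EA3 (-0.79 ± 0.22, 0.0145), with alectinib below DMSO on each of the 4 days. In EA2 the call was lost without day 2 (adjusted p = 0.066), day 3 (0.188) or day 5 (0.233), with no replicate block (0.0613) and with the line fitted alone (0.0759), and in EA3 without day 2 (0.0878) or day 3 (0.102). The effect did not pass the test between lines (adjusted p = 0.417).

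Aldh1l2, a mitochondrial enzyme that oxidises formyl-tetrahydrofolate and yields NADPH, fell in EA1 and EA3. In EA1 it measured 12.6, 48.8, 255 and 140 CPM with DMSO and 4.14, 9.32, 6.59 and 6.21 CPM with alectinib. In EA3 it measured 6.93, 12.7, 113 and 36.7 CPM with DMSO and 2.31, 3.62, 4.37 and 9.01 CPM with alectinib. The DMSO libraries of day 3 were the highest of both lines, and the treatments did not overlap in EA1. The log2 fold change was -3.50 ± 0.64 in EA1 (edgeR adjusted p = 0.00139) and -2.55 ± 0.63 in EA3 (0.00844). Without day 3 these were -2.87 (0.00417) and -1.81 (0.0203), and in EA1 it was -4.12 with no replicate block (0.00188). EA2 gave 14.5, 18.6, 63.3 and 42.1 CPM with DMSO and 7.45, 17.0, 59.6 and 59.5 CPM with alectinib, with a log2 fold change of -0.14 ± 0.55 (adjusted p = 0.883) and higher values on days 3 and 5 in both treatments. The effect in EA2 was above that in EA1 by 3.35 on the log2 scale (95% interval 1.56 to 5.15, adjusted p = 0.0331), while the test over all lines gave an adjusted p of 0.052, with 0.042 without day 1, 0.00236 with DESeq2 and 1.34e-21 with no filter. The difference of EA2 from EA1 was 2.69 without day 3 (0.0925), 2.72 without day 5 (0.202), 4.15 without day 1 (0.0248) and 4.17 with no replicate block (0.0429). Of the exon bases of Aldh1l2, 14.1% are shared with D10Wsu102e on the other strand, and the strand setting of the counting is not given in the sources used here.

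Aldh1l2 was set beside 18 genes of folate one-carbon metabolism and serine synthesis, all of them tested. Of these, 1 rose and 8 fell in EA1, and 8 fell and 0 rose in both EA2 and EA3, with median log2 fold changes of -0.69, -0.77 and -0.53. Those that fell in all lines were Shmt1 and Shmt2 (serine hydroxymethyltransferases of the cytosol and mitochondria), Mthfd2 and Mthfd1l (mitochondrial one-carbon enzymes), and Psat1 and Psph (serine synthesis). In the order EA1, EA2, EA3, Mthfd2 fell by 2.19, 1.38 and 1.95 and Shmt1 fell by 1.33, 1.74 and 1.12 on the log2 scale. Psat1 fell by 2.57, 1.04 and 2.06, and Psph fell by 2.32, 1.10 and 1.56. With no replicate block the EA2 calls of Psat1 (adjusted p = 0.0507) and Psph (0.0864) were lost, and without day 2 the EA3 call of Shmt1 (0.0815). The effects on Psat1, Shmt2 and Mthfd1l differed between lines (edgeR adjusted p = 0.0164, 0.0261 and 0.0246), and each was smallest in EA2, where Aldh1l2 did not pass the test.

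Aldh1b1, a mitochondrial relative of Aldh2, was near the floor. It had at most 7 counts in a library, reached in EA1 with alectinib on day 5, and no count in any EA2 DMSO library. With alectinib it had 1, 1, 4 and 7 counts in EA1 and 1, 1, 3 and 4 in EA3, against 3, 1, 0 and 0 and 2, 1, 0 and 1 counts with DMSO. A change of Aldh1b1 was not detectable at this depth.

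**Figure D3:**
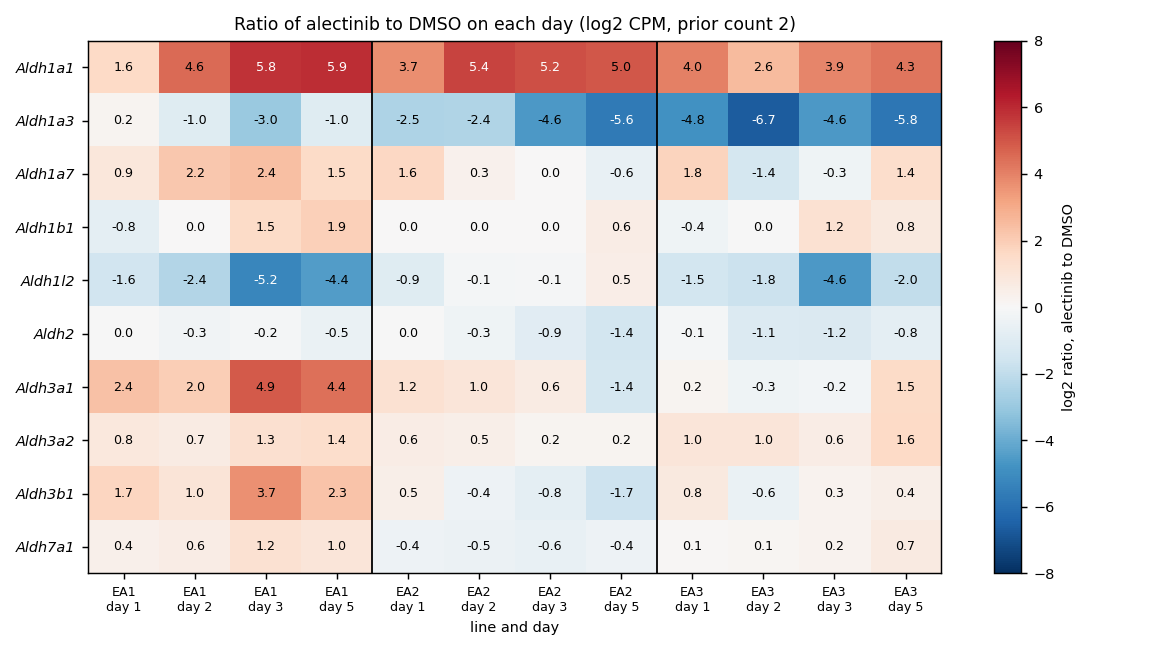
Log2 ratio of alectinib to DMSO within each line and day (columns) for the 10 genes (rows), from log2 CPM with a prior count of 2, in red where alectinib is higher and in blue where it is lower. Aldh1a1 is red in all 12 columns, Aldh3a1 is reddest in EA1, and Aldh1l2 is pale in EA2.

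Aldh3a1, a cytosolic enzyme of aromatic and lipid-peroxidation aldehydes, rose in EA1. It measured 56.8, 65.7, 10.4 and 27.5 CPM with DMSO and 294.5, 259.2, 325.5 and 575.8 CPM with alectinib there, without overlap, and the log2 fold change was 3.39 ± 0.58 (edgeR adjusted p = 0.000895), or 10.5-fold. In EA2 its level was 193, 139, 90.9 and 93.9 CPM with DMSO and 445, 275, 142 and 35.6 CPM with alectinib, so that alectinib was higher on days 1 to 3 and lower on day 5. In EA3 its level was 156, 211, 84.3 and 169 CPM with DMSO and 179, 168, 71.2 and 490 CPM with alectinib. The log2 fold changes of 0.41 ± 0.53 in EA2 (adjusted p = 0.612) and 0.28 ± 0.51 in EA3 (0.713) were within the spread between days. The effect differed between lines (adjusted p = 0.0385), lying 2.98 lower in EA2 than in EA1 on the log2 scale (95% interval of the difference -4.64 to -1.32). This call was lost without day 1 (adjusted p = 0.0825), day 3 (0.239) or day 5 (0.0599), with no replicate block (0.106) and with all 26 libraries (0.0853), and the difference of EA2 from EA1 ran from -3.70 without day 1 to -2.06 without day 5. The difference of EA3 from EA1 was -3.11 and did not pass (edgeR adjusted p = 0.0604), but did with DESeq2 (0.000216) and with no filter (5.05e-23).

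Aldh3a2, the fatty aldehyde dehydrogenase of the endoplasmic reticulum, rose in EA1 and EA3. Its gene ends 4995 bases from that of Aldh3a1 on chromosome 11, at chr11:61223417-61267464 on the minus strand. In EA1 it measured 66.1, 72.4, 45.8 and 49.4 CPM with DMSO and 117, 114, 113 and 129 CPM with alectinib. EA3 gave 53.4, 59.5, 50.9 and 38.9 CPM with DMSO and 105, 118, 78.5 and 119 CPM with alectinib. The change was 2.06-fold in EA1 and 2.07-fold in EA3, with log2 values of 1.04 ± 0.17 (edgeR adjusted p = 0.000532) and 1.05 ± 0.17 (0.000531). In EA2 it measured 67.8, 65.4, 84.0 and 79.7 CPM with DMSO and 101, 90.0, 97.5 and 91.4 CPM with alectinib, again without overlap, but the log2 fold change of 0.36 ± 0.17 did not pass the test (adjusted p = 0.135). The effect did not pass the test between lines (adjusted p = 0.116; 0.0311 with DESeq2), and the 95% interval of EA3 minus EA2 ran from 0.17 to 1.20. The promoter of Aldh3a2 is shown with its GCGTG match at 117 bases and its CCAAT match at 13 bases before the start site in capitals, as the only member with a dioxin receptor core among the 5 promoters.

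Aldh3a2 promoter, chr11:61267187-61267436, minus strand: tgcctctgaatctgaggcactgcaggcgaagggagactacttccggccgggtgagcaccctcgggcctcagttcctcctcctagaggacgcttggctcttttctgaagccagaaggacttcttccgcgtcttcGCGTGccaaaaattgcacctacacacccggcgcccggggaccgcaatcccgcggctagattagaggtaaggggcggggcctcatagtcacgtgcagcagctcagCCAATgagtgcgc

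Aldh3b1, a membrane-associated enzyme of lipid-derived aldehydes, rose 4.33-fold in EA1. It measured 6.11, 11.0, 1.57 and 5.86 CPM with DMSO and 20.5, 22.5, 22.4 and 29.1 CPM with alectinib there, without overlap, and the log2 fold change was 2.11 ± 0.41 (edgeR adjusted p = 0.0017). EA2 gave 33.0, 36.1, 40.5 and 39.2 CPM with DMSO and 45.7, 26.7, 23.3 and 12.1 CPM with alectinib, with a log2 fold change of -0.60 ± 0.38 (adjusted p = 0.275). In EA3 it measured 18.2, 62.2, 35.3 and 53.0 CPM with DMSO and 31.7, 42.1, 43.8 and 72.0 CPM with alectinib, with a log2 fold change of 0.25 ± 0.37 (0.641). Both of these lines overlapped between treatments, and the alectinib level of EA1 lay in the range of the EA2 alectinib libraries. The effect differed between lines (adjusted p = 0.0237), and in EA2 it was 2.72 lower than in EA1 on the log2 scale (95% interval of the difference -3.91 to -1.53). The adjusted p between lines was 0.157 without day 3 and 0.146 without day 5. The difference of EA3 from EA1 was -1.87 and did not pass (edgeR adjusted p = 0.108), but did with DESeq2 (0.0154) and with no filter (4.37e-06).

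The 9 listed genes of the dioxin receptor battery, which answers xenobiotics and to which Aldh3a1 is known to belong, and the 14 of the NRF2 battery, which answers oxidants, were counted beside these members. Of 7 dioxin receptor genes tested, 3 rose in EA1, 2 rose in EA2, and 2 rose and 2 fell in EA3. Ahr, the receptor itself, rose by 0.63, 0.69 and 1.35, and Cyp1b1, a cytochrome P450 that it induces, rose by 3.48, 1.66 and 3.48 on the log2 scale in EA1, EA2 and EA3. The Ahr calls in EA1 and EA2 were lost with no replicate block (adjusted p = 0.101 and 0.0885), with all 26 libraries (0.135 and 0.12) and without day 1 (0.0545 and 0.0825) or day 3 (0.098 and 0.0816), that in EA1 also without day 2 (0.0522), and the EA2 call of Cyp1b1 without day 2 (0.0692), day 3 (0.0757) or day 5 (0.0523). Of the 14 NRF2 genes, 7 rose and 3 fell in EA1, 2 fell and 0 rose in EA2, and 1 rose and 2 fell in EA3. The cystine transporter Slc7a11 fell by 2.66, 1.22 and 3.68 and glutathione reductase (Gsr) fell by 0.74, 0.60 and 0.51 in the same order. With no replicate block the calls of Slc7a11 in EA2 (adjusted p = 0.106) and Gsr in EA3 (0.0695) were lost, the latter also with the line fitted alone (0.081) and without day 3 (0.0806) or day 5 (0.0607). The effect on Slc7a11 differed between lines (edgeR adjusted p = 0.00742).

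Aldh7a1, which oxidises a semialdehyde of lysine breakdown, was the only member called in opposite directions. In EA1 it measured 22.6, 21.7, 16.7 and 21.8 CPM with DMSO and 30.5, 32.3, 38.9 and 42.7 CPM with alectinib, a log2 fold change of 0.80 ± 0.15 (edgeR adjusted p = 0.0015). In EA2 its level was 83.1, 97.0, 82.8 and 78.0 CPM with DMSO and 62.2, 69.4, 55.3 and 57.9 CPM with alectinib, a log2 fold change of -0.48 ± 0.15 (0.0292). Neither line overlapped between treatments. In EA3 its level was 83.5, 102, 75.2 and 71.5 CPM with DMSO and 90.6, 113, 89.6 and 116 CPM with alectinib, higher on all 4 days, with a log2 fold change of 0.30 ± 0.15 (adjusted p = 0.133). The effect differed between lines (adjusted p = 0.00754), by -1.27 for EA2 minus EA1 on the log2 scale (95% interval -1.73 to -0.82). The EA2 fall lost its call without any single day, at adjusted p from 0.0671 to 0.109, with log2 fold changes from -0.50 to -0.45, and with no filter on low counts (-0.47, adjusted p = 0.143), and the difference between lines lost it without day 3 (0.0859) or day 5 (0.0528). Of its exon bases, 5.79% are shared with Phax on the other strand.

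Over the 9 tested members, the alectinib effect differed between lines for 4, namely Aldh1a3, Aldh3a1, Aldh3b1 and Aldh7a1, where 7.05% of all genes did. This count was 5 without day 1, 4 without day 2, 1 without day 3 and 0 without day 5, 2 with no replicate block and 7 with DESeq2. Aldh1a3 fell in EA2 and EA3 and did not pass the test in EA1, and Aldh3a1 and Aldh3b1 rose in EA1 and did not pass the test in the others. For Aldh3a1 and Aldh3b1 the difference of EA3 from EA1 did not pass by edgeR (-3.11, adjusted p = 0.0604, and -1.87, 0.108).

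The level with DMSO differed between lines for 8 of the 9 members by edgeR, all but Aldh3a2 (adjusted p = 0.0512), and 55.6% of 12886 genes differed. Aldh3a2 passed with DESeq2 (0.0286), with its size factors in edgeR (0.0454), with library size alone (0.0227), with at least 10 counts in every library (0.0452) and without day 2 (0.042). With no replicate block the Aldh1l2 difference did not pass (0.212), which left 7 members. Aldh1a1 was 21.2-fold higher in EA2 and 24.2-fold higher in EA3 than in EA1, with log2 differences of 4.40 ± 0.73 (adjusted p = 0.000507) and 4.60 ± 0.74 (0.000552). These folds rest on 6, 1, 0 and 1 counts in EA1, and without day 1 they were 62.1 and 83.6. Aldh1a3 went the other way, with a level in EA2 below that of EA1 by 5.00 ± 0.39 on the log2 scale (1.19e-06), and in EA3 below it by 1.98 ± 0.34 (0.000878), the latter not past the threshold with no replicate block (0.0869). Aldh7a1, Aldh3b1 and Aldh3a1 were all lowest in EA1, the line in which each rose. In EA2 they stood 4.14-fold, 6.71-fold and 3.72-fold above EA1. EA2 and EA3 did not pass the test against each other for Aldh1a1, Aldh3a1, Aldh3b1, Aldh7a1, Aldh1l2 and Aldh2 (adjusted p from 0.0743 to 0.939), although Aldh2 passed with DESeq2 (0.0359), library size alone (0.0274) and no filter (0.0257). Aldh1a3 was 8.11-fold higher in EA3 (5.93e-05). Aldh1a7 was 2.69-fold higher in EA3 than in EA2 (0.0429) and Aldh3a2 was 1.49-fold higher in EA2 than in EA3 (0.0329), and with no replicate block neither passed (0.0617 and 0.0588). The Aldh1a7 call was also lost without day 2 (0.2), day 3 (0.113) or day 5 (0.056) and with library size alone (0.0709), and that of Aldh3a2 without day 1 (0.0516), day 3 (0.0653) or day 5 (0.165). For Aldh7a1 the 95% interval of EA3 minus EA2 was -0.36 to 0.28 on the log2 scale.

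Per kilobase of exon, Aldh2 was the highest member with DMSO at 111 ± 17.4 (SD, n = 4) CPM per kilobase in EA1, 246 ± 49.1 in EA2 and 180 ± 64.5 in EA3. In EA1 it was followed by Aldh1a3 (64.7 ± 72.1), Aldh3a1 (20.7 ± 13.2), Aldh1l2 (15.2 ± 14.4) and Aldh3a2 (10.4 ± 2.28), whose libraries overlapped from each to the next. Aldh7a1 (4.0 ± 0.517) and Aldh3b1 (2.99 ± 1.88) had lower means, apart from Aldh3a2 but within the range of Aldh1l2, whose lowest library was at 1.67. Aldh1b1, Aldh1a1 and Aldh1a7 were at the bottom, at or under 0.140 CPM per kilobase in every EA1 DMSO library. In EA2 and EA3 the next place belonged to Aldh3a1, at 66.5 ± 24.6 and 79.9 ± 27.2, and it stood apart from the next member, Aldh3b1, in both. With alectinib, Aldh3a1 held the first place in EA1 at 187 ± 74.1, apart from Aldh2 at 92.7 ± 4.85, and Aldh1a1 came to 35.1 ± 17.3 in EA2, after Aldh2 (156 ± 40.3) and Aldh3a1 (116 ± 90.9). In EA3 Aldh3a1 (117 ± 93.7) and Aldh2 (99.9 ± 23.5) overlapped under alectinib, and Aldh1a1 was at 17.2 ± 9.43. This order depends on the length used, which is 5126 exon bases for Aldh2 and 1942 for Aldh3a1. By CPM alone, Aldh2 had a higher mean than Aldh3a1 with alectinib in EA1 (475.3 against 363.8) and in EA3 (511.8 against 227.1).

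EA1 had a summed level of the 10 genes of 228.9 ± 69.4 CPM per kilobase with DMSO and 341.8 ± 84.5 with alectinib (SD, n = 4). EA2 had 368.8 ± 34.8 and 354.7 ± 121, and EA3 had 331.8 ± 84.1 and 301.6 ± 134. These ranges overlapped between treatments in each line. Aldh3a1 went from 10.7% ± 8.10 to 53.5% ± 6.97 of the sum in EA1, Aldh1a1 from 0.287% ± 0.0575 to 11.9% ± 7.96 in EA2, and Aldh2 from 66.2% ± 7.44 to 44.9% ± 4.35 in EA2. These shares depend on the same exon lengths.

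**Figure D4:**
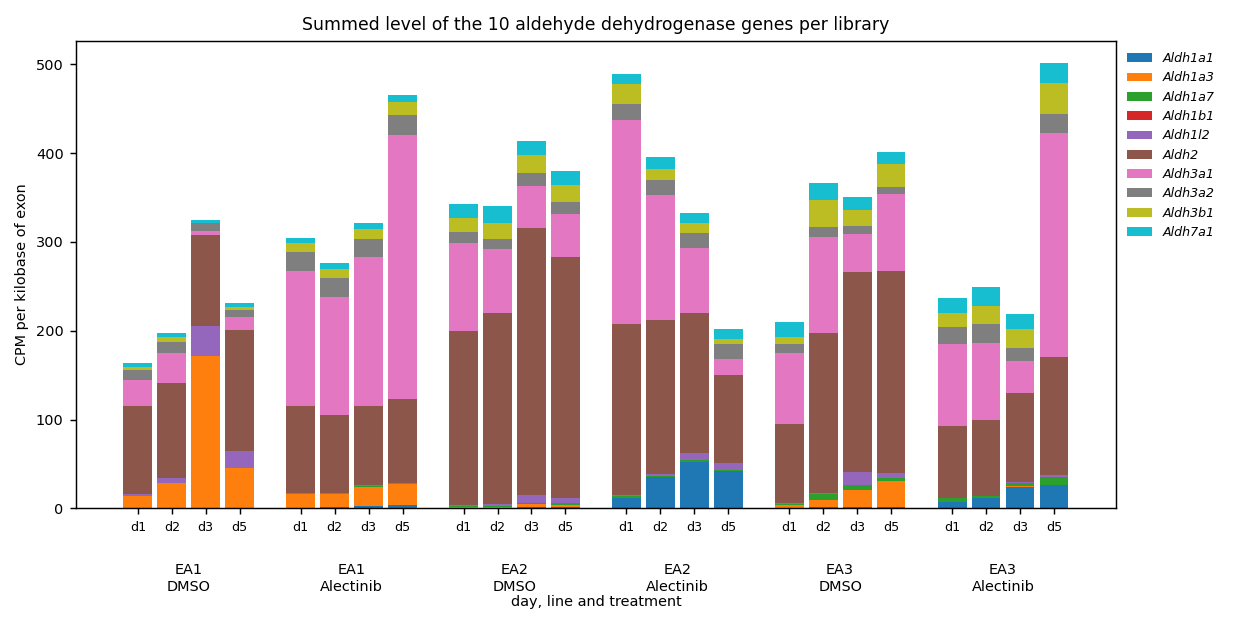
Summed CPM per kilobase of exon of the 10 genes in each of 24 libraries (vertical axis from 0), stacked by gene and ordered by line, treatment and day. Aldh2 (brown) and Aldh3a1 (pink) make up most of the height in every library but that of EA1 with DMSO on day 3, where Aldh1a3 is 52.8% of the sum. Aldh1a3 (orange) is visible in EA1 and EA3 with DMSO, and Aldh1a1 (blue) in EA2 and EA3 with alectinib.

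Days were also treated as a series, by asking how far the log2 ratio of alectinib to DMSO moved each time the number of days doubled. By edgeR no member passed the threshold in any line, and the lowest adjusted p of a member was 0.43 (EA1), 1.0 (EA2) and 0.647 (EA3). Over all 14264 genes, EA1 and EA2 each had 0 past it (0.00%) and EA3 had 9 (0.0631%). DESeq2 called 50, 16 and 160 genes and no member. At an unadjusted p under 0.05, 1 member was found in EA1 (8.06% of all genes), 2 in EA2 (3.86%) and 0 in EA3 (9.97%). The Aldh1a1 effect in EA1 grew by 2.87 ± 0.85 on the log2 scale per doubling (unadjusted p = 0.00354, adjusted p = 0.43), with daily log2 ratios of 1.61, 4.56, 5.75 and 5.88. This slope was 0.83 without day 1 and 4.20 without day 5, and it passed the threshold with no filter on low counts (adjusted p = 0.00218). Aldh2 and Aldh3b1 in EA2 went down, with slopes of -0.63 ± 0.19 (unadjusted p = 0.00382) and -0.90 ± 0.41 (0.0433). In EA2 with alectinib, Aldh3a1, Aldh3b1 and Aldh2 each had their lowest level on day 5.

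**Figure D5:**
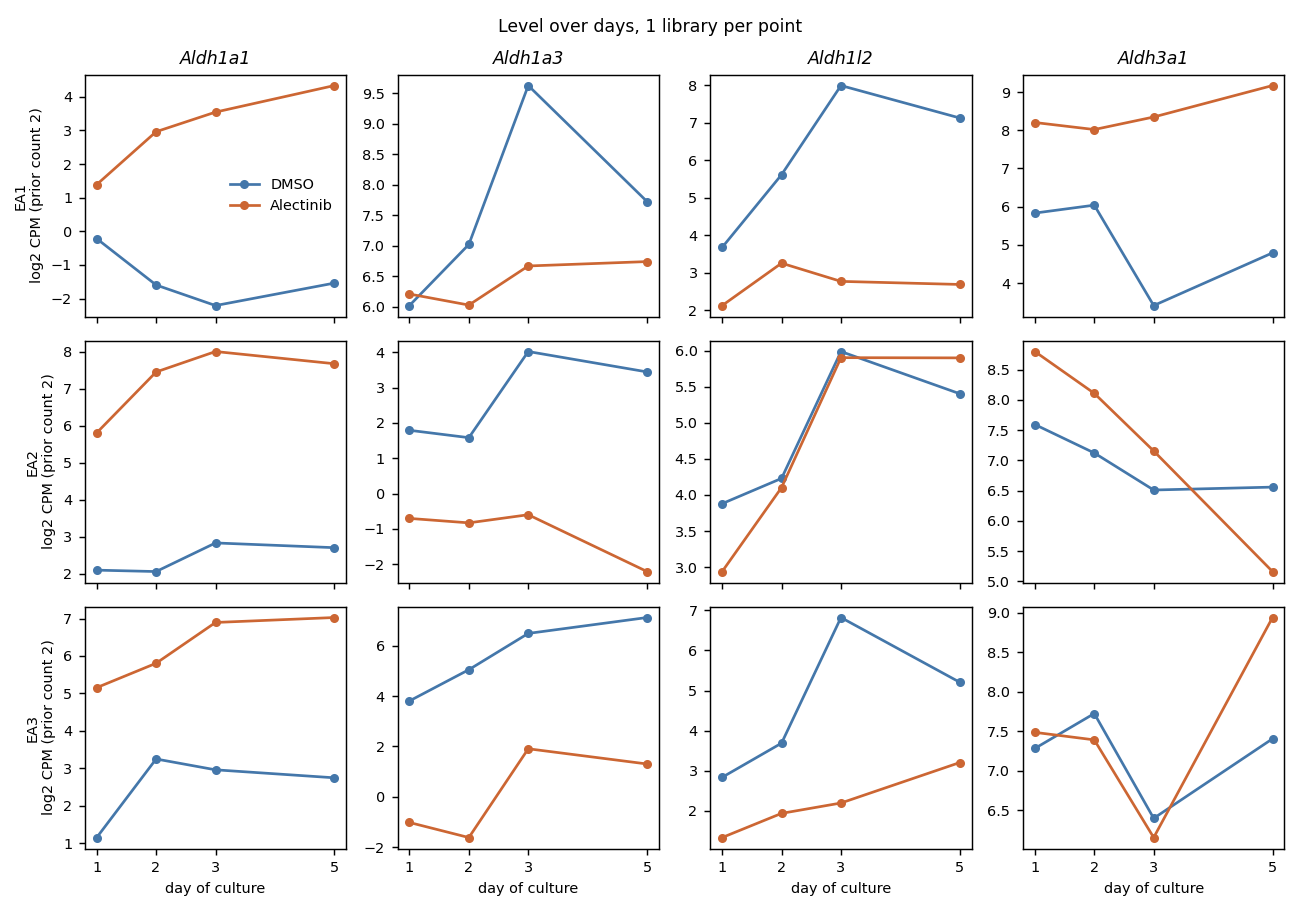
Log2 CPM (prior count 2, vertical axis, with its own range in each panel) over days 1, 2, 3 and 5 for Aldh1a1, Aldh1a3, Aldh1l2 and Aldh3a1 (columns) in EA1, EA2 and EA3 (rows), with DMSO in blue, alectinib in orange and 1 library per point. With DMSO, Aldh1l2 is highest on day 3 in each line, and with alectinib in EA2 Aldh3a1 goes down from day 1 to day 5.

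The 2 libraries labelled EA3 day 7 were read as values only. Aldh1a1 had 20 counts in the library labelled DMSO and 3271 in that labelled alectinib, and Aldh1a3 had 195 and 1. Aldh1a7 had 5 and 74 counts, Aldh1l2 1412 and 235, and Aldh3a1 133 and 1127. Aldh1b1 had 0 counts in both, which allows up to 3. Aldh1a1 was higher and Aldh1a3 lower in the alectinib library, as on the other days of EA2 and EA3. Aldh1l2 was at 178 CPM with DMSO and 19.9 CPM with alectinib, lower as in EA3, while in EA2 it did not pass the test. In the same order, Aldh3a1 was at 16.8 and 95.5 CPM, Aldh2 at 1068 and 558.3, and Aldh3a2 at 87.1 and 94.0. Aldh3b1 was at 15.9 and 25.6 CPM and Aldh7a1 at 70.0 and 62.6.

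Of 11 further Aldh genes in the table, 7 were tested. Of them 4 rose and 2 fell in EA1, 1 rose and 2 fell in EA2, and 3 rose and 2 fell in EA3. Aldh6a1, a mitochondrial enzyme of valine and pyrimidine breakdown, rose in all lines, with log2 fold changes of 1.86 ± 0.28, 1.13 ± 0.27 and 1.04 ± 0.27 (edgeR adjusted p = 0.00027, 0.00797 and 0.00927). Aldh18a1, which makes the precursor of proline, fell in all lines by 1.63, 0.59 and 1.14 (adjusted p = 0.000108, 0.0494 and 0.00115), and its EA2 call was lost without any single day, at adjusted p from 0.0613 to 0.181, with no replicate block (0.248) and with all 26 libraries (0.0698). The EA2 call of Aldh6a1 was lost without day 1 (0.0603) or day 2 (0.0524), and its EA3 call without day 1 (0.0534) or day 2 (0.0776), and with no replicate block both were lost (0.086 and 0.1).

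Aldh1l1, the cytosolic counterpart of Aldh1l2, rose in EA1 (2.31 ± 0.68, edgeR adjusted p = 0.0185) and fell in EA2 (-1.69 ± 0.54, 0.0366), and the effect differed between lines (0.0316). In EA1 its mean was 0.523 CPM with DMSO and 2.34 CPM with alectinib, and its call there was lost without day 3 (0.116), while the log2 fold change was 3.04 without day 2. In EA2 it was -2.27 without day 1. The EA2 call was lost without day 2 (0.0598), day 3 (0.172) or day 5 (0.211), with no replicate block (0.0649) and with the line fitted alone (0.0764). Aldh4a1 and Aldh5a1, mitochondrial enzymes of proline and GABA breakdown, rose in EA1 (1.36 and 0.94) and EA3 (1.00 and 1.38). Aldh4a1 shares 32.5% of its exon bases with Gm21969 on the same strand, and the EA1 call of Aldh5a1 was lost without day 2 (adjusted p = 0.11), day 3 (0.264) or day 5 (0.101), with no filter (0.0595), no replicate block (0.107), all 26 libraries (0.119) or the line fitted alone (0.0911), and its EA3 call without day 5 (0.0763) or with all 26 libraries (0.115). Aldh9a1 fell in EA3 (-0.70, adjusted p = 0.000731), though not with all 26 libraries (-0.41, 0.139), where EA3 includes those labelled day 7 that were most like EA2. Aldh16a1 fell in EA1 (-0.68, 0.0203), but not without day 1 (0.135), day 2 (0.051) or day 5 (0.0618), with library size alone (0.0666) or with no replicate block (0.0525). In EA3 Aldh16a1 passed only without day 3 (0.016), and in EA2 only with DESeq2 (0.0443).

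Genes of retinoid handling and of alcohol oxidation were counted as well. Of 15 tested genes of retinoid uptake, storage and signalling, 5 rose and 1 fell in EA1, 3 rose and 4 fell in EA2, and 3 rose and 5 fell in EA3. Stra6, the membrane receptor for retinol-binding protein, rose in all lines by 2.33, 2.54 and 3.78 on the log2 scale, from means of 0.186, 0.146 and 0.438 CPM to 0.795, 0.938 and 6.31 CPM. Its calls in EA1 and EA2 were lost without day 1 (adjusted p = 0.143 and 0.0961), day 2 (0.0704 and 0.0574) or day 3 (0.0816 and 0.0617). Among the 3 genes tested of the alcohol dehydrogenase list (Adh5, Adh7 and Adhfe1), of which Adh7 oxidises retinol and ethanol, edgeR called 1 as higher in EA1 and 1 in EA3, with no other call in either direction. Adh7 rose by 2.13 in EA1 and 4.02 in EA3 and was at 0.65 in EA2 (adjusted p = 0.124, but 0.0483 with no filter, 0.0139 with the line fitted alone and 0.037 without day 5), a difference between lines (0.0325), although its EA3 level was 0.0530 CPM with DMSO and 1.21 CPM with alectinib. Adh5 had log2 fold changes of 0.26, -0.08 and -0.33 and passed in no line.

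Of 10 tested genes listed for aldehyde formation and nearby steps, such as amine oxidases and the alcohol-forming fatty acyl-CoA reductases, 5 rose and 2 fell in EA1, 2 rose and 1 fell in EA2, and 3 rose and 2 fell in EA3. Monoamine oxidase A (Maoa) rose by 2.06, 2.19 and 1.58 on the log2 scale in EA1, EA2 and EA3. The fatty acyl-CoA reductase Far1, which makes the fatty alcohols upstream of ether lipids, rose by 1.39, 1.36 and 0.79. Proline dehydrogenase (Prodh) fell by 1.92, 1.91 and 2.41, while Aldh4a1, the next enzyme of that pathway, rose in EA1 and EA3.

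The genes whose log2 CPM followed each member most closely over the 24 libraries were listed by Pearson's r, as a description, since the libraries share lines and days. Aldh1a1 was most like Dclk1 (r = 0.965), Adamts5 (0.944) and Pbxip1 (0.937), and Aldh1a3 was most like Btc (0.956), which encodes betacellulin, Krt23 (0.934) and Abcb1a (0.930). Aldh1l2 was most like C9orf72 (0.930), Gpt2 (0.914) and Cyb5r1 (0.888), and Aldh3a1 was most like the glutathione transferases Gsta4 (0.900) and Gstm1 (0.870) and Ctxn1 (0.822). For Aldh2 these were Scg2 (0.905), Mpzl1 (0.887) and Rilpl2 (0.885), for Aldh3a2 Gxylt2 (0.933), Vipas39 (0.915) and Zc4h2 (0.904), and for Aldh3b1 Glrx (0.926), Pnkd (0.911) and Tctn2 (0.901). Aldh1a7 was most like Ctsz (0.944), Efemp1 (0.940) and Zrsr1 (0.939), and Aldh7a1 was most like Olfml2b (0.968), Trerf1 (0.956) and Slc25a13 (0.952). Between members, Aldh1a1 and Aldh1a3 had an r of -0.793, Aldh1a1 and Aldh1a7 of 0.701, and Aldh7a1 and Aldh1a7 of 0.910.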

How the data were processed

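RNA was sequenced as paired reads of 151 bases from stranded mRNA libraries of EA1, EA2 and EA3. The authors checked reads with FastQC, trimmed them with bbduk, aligned them with STAR to mm10, and deposited as counts the reads that STAR's own counter assigned to each gene. The strand column of that counter, the annotation release and the tool versions are not given in the sources used here. The 24 rows whose symbol is a date number, with 0.129% to 0.201% of the counts of a library, were left out. Of the other symbols, 55314 matched GENCODE M21 without regard to case and 77 did not.

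Library totals are given in the report, and counting error covers sampling of reads only. For 24 libraries the deposited counts went into edgeR 4.0.16 under R 4.3.3 (TMM, filterByExpr by line and treatment, robust quasi-likelihood test, 12 blocks of line and day, an alectinib effect per line). Levels between lines were tested in the 12 DMSO libraries with the day as a block. The day is the replicate number, and both libraries of a line and day deviated from their groups with a correlation over genes of -0.300 to 0.549. The Benjamini-Hochberg method adjusted p-values. Fold changes come from the fit, CPM values divide counts by the total over tested genes times its TMM factor, and CPM per kilobase divides by the union of GENCODE exons. Alternatives were DESeq2 1.42.0, its size factors in edgeR, library size alone, other filters on low counts, no replicate block, each line alone, all 26 libraries, days in place of log2 days, and each day left out. The fit with all 26 libraries counted those labelled EA3 day 7 as EA3, although their profiles were most like EA2.

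On simulated counts over 14264 genes, 95, 98 and 93 of 100 genes changed by 2 on the log2 scale were called in EA1, EA2 and EA3, and 89 of 100 between lines. For a change of 1 the numbers were 72, 62 and 66, and 30 between lines. The simulation gave every gene the same dispersion, and for the test between lines it changed genes in EA2 only. Some members varied more between days, such as Aldh1a3 in EA1 with DMSO (64.57 to 790.2 CPM). The numbers are therefore not the power for the members. The effect on Aldh3a1 for EA3 minus EA1 was -3.11 and missed the threshold (edgeR adjusted p = 0.0604).

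All 10 members are named. Of the other lists, cell type markers and MAPK targets aside, the text names every tested Aldh gene and, per list, the genes past the threshold in 1 direction in all lines or else the 2 with the smallest adjusted p, and the 3 genes most like each member. Members, lists, motifs and tests were chosen with earlier results of these data known.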

Additional observations from a re-analysis of the deposited data

Results flagged for a closer look

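Of 58 groups of 4 libraries examined for a stray value, 2 held a library whose gap to the nearest other exceeded Dixon's 95% critical value, and chance flags about 1 in 20 such groups. Aldh1b1 was at 0.111 CPM in EA2 with alectinib on day 5, which is 1 count, and at 0 in the other 3 libraries of the group. Aldh7a1 was at 16.7 CPM (149 counts) in EA1 with DMSO on day 3 and between 21.7 and 22.6 CPM on the other days. Without that day the Aldh7a1 effect in EA1 kept its direction and its call.

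The effect of alectinib differed between lines, by the edgeR test of the difference itself, for 10 of the genes named. The adjusted p was 0.00786 for Aldh1a3, 0.0385 for Aldh3a1, 0.0237 for Aldh3b1 and 0.00754 for Aldh7a1. Of the further genes, it was 0.0316 for Aldh1l1, 0.0261 for Shmt2, 0.0246 for Mthfd1l, 0.0164 for Psat1, 0.0325 for Adh7 and 0.00742 for Slc7a11.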

How the results depend on the processing

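Under every alternative in which they could be fitted, the calls of Aldh1a1 in all lines, Aldh1a3 in EA2 and EA3, Aldh1l2 and Aldh3a2 in EA1 and EA3, and Aldh3a1, Aldh3b1 and Aldh7a1 in EA1 kept their direction and their side of the threshold. The cause of the changes below was not tested, except that requiring at least 10 counts in every library left 6 members to test, with 2 called in EA2 and 3 in EA3. In the alectinib comparisons that filter gave no value for Aldh1a1, Aldh1a3 and Aldh1a7, in the DMSO levels none for Aldh1a1 and Aldh1a7, and fitting each line alone gave none between lines and none for Aldh1a7 in EA1. Scaling by library size alone moved the median log2 fold change of all genes from 0.03 to 0.16 in EA1 and from 0.04 to 0.18 in EA3, and turned no effect of a member against DMSO.

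With each day left out, the members called numbered 2 to 3 in EA2 and 0 to 5 between lines. Over all genes, the calls numbered 2796 to 4088 in EA1 (4820 with all days; lowest without day 3), 2142 to 2654 in EA2 (3464; without day 3), 2836 to 3889 in EA3 (4602; without day 2) and 211 to 792 between lines (1005; without day 3). Between lines, 1963 genes were called with DESeq2, 2698 with no filter on low counts and 398 with all 26 libraries, and 7 members were called with DESeq2 and 7 with no filter. Without the replicate block, that is with unpaired days, 2 members were called between lines and Aldh1l2 in EA2 went to 0.0527 on the log2 scale. That fit also lost the EA2 fall of Aldh2, the differences between lines of Aldh1a3 and Aldh3a1 and the DMSO level difference of Aldh1l2, and changed no other call of a member against DMSO or over all lines, while some calls between pairs of lines did change. The day numbers correlated above 0.1 in only some of the lines and days. With each day left out, the log2 fold change in EA2 ran from -0.12 to 0.73 for Aldh1a7 and from -0.37 to 0.11 for Aldh1l2, and in EA3 from -0.10 to 0.95 for Aldh1a7 and from -0.0931 to 0.47 for Aldh3a1.

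For the slope per doubling of days, genes called in EA1, EA2 and EA3 numbered 50, 16 and 160 with DESeq2 and 244, 112 and 269 with no filter, the latter with 4 members in EA1 and 1 in EA2. With days in place of log2 days 1 gene was called in EA2 and 16 in EA3, and with each day left out 0 to 52, 0 to 25 and 0 to 192. With each day left out, slopes in EA1 ran from 0.83 to 4.20 for Aldh1a1, from -1.95 to 0.27 for Aldh1a3 and from -0.63 to 1.36 for Aldh1a7, and in EA2 from -0.33 to 0.98 for Aldh1a1 and from -0.0949 to 0.0267 for Aldh7a1. In EA3 they ran from -0.21 to 1.26 for Aldh1a1, from -0.27 to 1.23 for Aldh1a3, from -1.60 to 2.15 for Aldh1a7, from -1.89 to 0.25 for Aldh1l2, from -0.68 to 0.23 for Aldh2, from -0.32 to 1.42 for Aldh3a1, from -0.18 to 0.50 for Aldh3a2 and from -0.46 to 0.73 for Aldh3b1. In EA3 the slope of Aldh1a3 was 0.19 with DESeq2, 0.0433 with library size alone and 0.0236 with no filter, that of Aldh1a7 was 0.22 with days in place of log2 days, and that of Aldh3b1 was 0.0074 with library size alone and 0.0654 with days. Few counts limit Aldh1b1, Aldh1a7 and, in EA1 with DMSO, Aldh1a1.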
